A study of Homo sapiens with 4 samples.

Results

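New MBD-seq peaks at promoters of long non-coding RNA (lncRNA) genes were examined in HEK293 cells that carried a targeted DNA methylation system with wild type DNMT3A. The members were the peaks of the deposited wild type list that overlapped the 1000 bp on either side of the canonical start site of a lncRNA gene and lay more than 1000 bp from every start site of a protein-coding transcript. They numbered 565 of the 12864 listed peaks, of which 12667 lay on chromosomes 1 to 22, where the rule was applied. Another 9708 peaks lay within 1000 bp of a coding start site, 112 at start sites of pseudogenes alone and 2282 at none of these. The members were not free of pseudogenes, since 106 of them also had a pseudogene start site within 1000 bp. Gene models were those of GENCODE release 44 lifted to hg19, the build of the peaks.

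HEK293 is a human cell line derived from embryonic kidney. The cells were transiently transfected with dCas9-SunTag, an sgRNA for the CpG island of ISG15 and Ab-3A3L, an antibody fragment fused to the catalytic part of DNMT3A and to DNMT3L, and were collected after 3 days by FACS for the presence of every plasmid. Wild type, K844E and R887E forms of Ab-3A3L and untreated cells made up 4 conditions with 1 library each, and methylated DNA was enriched with GST-MBD2. The list analysed holds peaks of the wild type library that were new relative to untreated cells, and the libraries of K844E, R887E and untreated cells were not analysed here. All cells with the effector also carried dCas9-SunTag and the ISG15 sgRNA, so that effects of these cannot be told apart from those of Ab-3A3L. Without replicates nothing could be set against a spread between samples, no p-value was computed, and the 95% exact binomial intervals given for shares cover counting error only.

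DNMT3A adds methyl groups to cytosines of CpG dinucleotides and DNMT3L, which has no catalytic activity of its own, stimulates it. In most cells CpG islands, the CpG-rich stretches at many promoters, are kept free of methylation, and their methylation is associated with stable silencing. lncRNA genes are transcribed by RNA polymerase II like coding genes, but fewer of their promoters lie in CpG islands. Some lncRNAs act in the nucleus or in the cytoplasm, others are hosts from whose introns or exons small RNAs are cut, and for many no role is known. MBD-seq sequences DNA fragments bound by a methyl-CpG binding domain, so it shows enrichment over a region and gives no methylation level per CpG, and a region outside the list has not been measured as unmethylated.

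The sequences of 200 bp around the summit, the position with most fragments, are shown for members picked by fold, background rate or gene. All are plus strand sequences of hg19, with CpGs in capitals. The 3 highest folds lay at WASH2P (chr2:114341354-114341553), MIR1302-2HG (chr1:28997-29196) and ZSCAN2-AS1 (chr15:85176848-85177047), with 17, 23 and 25 CpGs in the stretch shown. The highest folds among well studied lncRNA genes lay at LINC00511, which had 2 peaks (chr17:70587821-70588020 and chr17:70588676-70588875), and at MIR17HG (chr13:92000779-92000978), with 22, 17 and 30 CpGs. The highest background rate was that at LINC00910 (chr17:41466093-41466292), with 14. MALAT1 (chr11:65265087-65265286), with 22 CpGs, and DANCR (chr4:53578740-53578939), with 28, were added after their values had been seen, because the results return to them.
WASH2P: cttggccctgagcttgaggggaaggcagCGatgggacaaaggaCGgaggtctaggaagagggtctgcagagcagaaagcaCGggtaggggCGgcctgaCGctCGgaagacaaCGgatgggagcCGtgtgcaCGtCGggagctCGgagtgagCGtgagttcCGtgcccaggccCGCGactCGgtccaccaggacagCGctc
MIR1302-2HG: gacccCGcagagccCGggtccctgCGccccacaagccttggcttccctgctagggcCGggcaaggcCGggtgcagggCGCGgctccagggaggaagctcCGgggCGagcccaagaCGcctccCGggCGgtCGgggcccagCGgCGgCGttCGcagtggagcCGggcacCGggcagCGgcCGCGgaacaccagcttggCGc
ZSCAN2-AS1: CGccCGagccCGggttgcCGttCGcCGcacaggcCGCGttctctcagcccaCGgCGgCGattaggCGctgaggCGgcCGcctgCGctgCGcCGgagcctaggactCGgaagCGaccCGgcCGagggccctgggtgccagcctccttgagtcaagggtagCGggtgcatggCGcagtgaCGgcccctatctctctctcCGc
LINC00511, intron peak: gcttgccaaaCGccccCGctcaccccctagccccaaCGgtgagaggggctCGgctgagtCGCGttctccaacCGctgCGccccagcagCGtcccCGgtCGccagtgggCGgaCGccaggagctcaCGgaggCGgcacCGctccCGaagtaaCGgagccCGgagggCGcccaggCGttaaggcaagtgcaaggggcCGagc
LINC00511, exon 1 peak: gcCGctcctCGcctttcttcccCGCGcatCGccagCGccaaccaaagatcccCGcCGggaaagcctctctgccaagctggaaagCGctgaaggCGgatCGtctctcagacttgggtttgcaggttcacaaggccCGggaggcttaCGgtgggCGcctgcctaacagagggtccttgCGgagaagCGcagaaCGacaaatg
MIR17HG: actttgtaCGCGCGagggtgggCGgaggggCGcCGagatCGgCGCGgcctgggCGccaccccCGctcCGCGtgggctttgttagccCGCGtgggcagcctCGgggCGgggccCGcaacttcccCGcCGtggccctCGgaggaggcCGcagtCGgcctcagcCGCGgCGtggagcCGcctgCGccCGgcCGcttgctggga
LINC00910: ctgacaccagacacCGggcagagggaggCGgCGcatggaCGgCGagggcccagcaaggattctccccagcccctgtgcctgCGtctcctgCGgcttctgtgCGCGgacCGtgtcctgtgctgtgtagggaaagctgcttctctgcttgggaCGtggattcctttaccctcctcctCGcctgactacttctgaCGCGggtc
MALAT1: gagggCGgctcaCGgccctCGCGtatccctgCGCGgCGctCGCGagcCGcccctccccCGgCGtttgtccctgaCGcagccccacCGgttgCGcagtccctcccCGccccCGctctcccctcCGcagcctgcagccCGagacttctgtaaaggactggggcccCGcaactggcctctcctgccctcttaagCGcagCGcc
DANCR: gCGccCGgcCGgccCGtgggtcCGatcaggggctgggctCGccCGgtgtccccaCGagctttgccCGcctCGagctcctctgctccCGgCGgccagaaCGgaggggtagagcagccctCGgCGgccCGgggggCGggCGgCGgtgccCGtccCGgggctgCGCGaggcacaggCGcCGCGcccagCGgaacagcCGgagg

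All of the peaks shown overlapped a CpG island, so they do not stand for the 32 members outside islands. Of the 565 members, 533 (94.3%, interval 92.1 to 96.1%) overlapped a CpG island as rebuilt from the genome sequence, against 97.3% of the peaks at coding start sites, 75.9% of those at pseudogene starts alone and 57.4% of those at none of these. Over all peaks on chromosomes 1 to 22 the share was 89.8%. The rebuilt set held 53919 islands, found without masking of repeats. Under stricter island criteria (at least 500 bp, 55% GC and an observed to expected CpG ratio of 0.65) the shares were 79.6% of members and 90.1% of peaks at coding start sites. Over all peaks on chromosomes 1 to 22 the stricter share was 79.2%, close to that of the members. The members held between 7 and 208 CpGs with a median of 46, whereas peaks at coding start sites had a median of 59. Per 100 bp the medians were 9.36 and 10.4 CpGs. The GC content of the members had a median of 68.9%.

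The fold divides the fragments counted at the summit by the background rate of the peak caller, with 1 added to each. Over the members it ran from 1.71 to 27.8, with a median of 7.17 (quartiles 5.03 and 9.93). For peaks at coding start sites the median was 8.05 (quartiles 5.93 and 10.6), so that the middle parts of both distributions overlapped widely. A fold of at least 10 was found in 133 members (23.5%, interval 20.1 to 27.3%) and in 29.1% of the peaks at coding start sites. The members were 253 to 2369 bp wide with a median of 478 bp, against 559 bp at coding start sites.

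From each fold and its p-value the summit fragments could be worked back, and they numbered 7 to 230 with a median of 19 in the members, against 17 in the peaks at coding start sites. Their background rate had a median of 1.16 fragments, against 0.773. It stood at the genome-wide rate of 0.611 in 131 members (23.2%) and in 33.3% of the peaks at coding start sites, and at 10 or more in 30 members (5.31%) and 2.47%. The lower median fold of the members went with higher background rates, while their fragments were not fewer. Over the 565 members, which all come from 1 library, the fold had a Spearman rho of -0.717 with the background rate, which is its own denominator, of 0.404 with the width, of 0.378 with the number of CpGs and of 0.0766 with the CpG density.

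**Figure D1:**
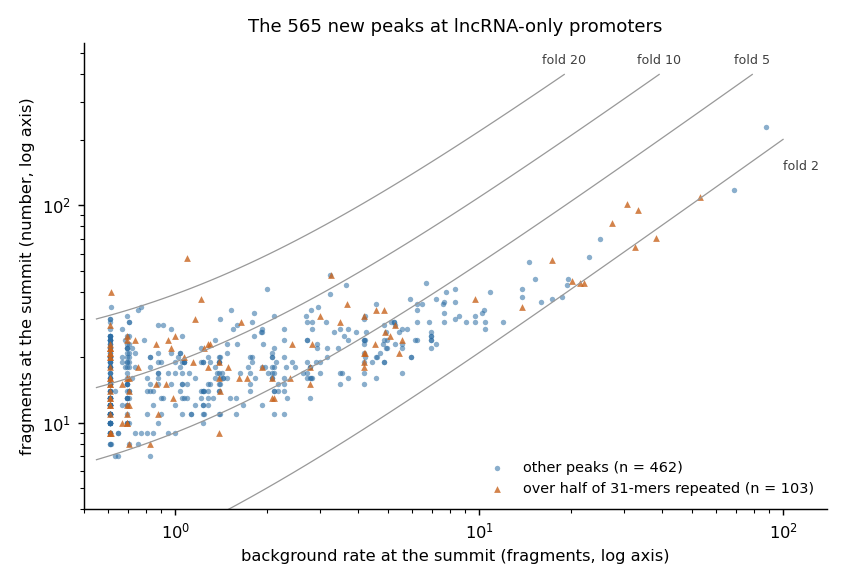
Fragments at the summit (log axis) against the background rate (log axis) for the 565 members, each point 1 peak, with lines of equal fold. Most points lie below a rate of 10, where the median is 19 fragments over all members, and triangles mark the 103 members whose sequence is repeated elsewhere in the genome.

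Sequence copies matter for this set, because reads from identical copies cannot be assigned to one of them. In 103 members (18.2%, interval 15.1 to 21.7%) more than 50% of the 31-base words in the 300 bp around the summit occurred elsewhere in the reference, against 2.22% of the peaks at coding start sites, 34.8% of those at pseudogene starts alone, 23.4% of those at none of these and 7.05% of all peaks on chromosomes 1 to 22. Genes with a pseudogene tag in the annotation accounted for 105 members, of which 50 were repeated in this sense. The median fold was 7.45 in the 103 repeated members and 7.15 in the other 462, and 93.2% and 94.6% of them overlapped an island. The values of the set as a whole were therefore close to the same without the repeated members.

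The 10 highest folds ran from 18.01 to 27.8, and 3 of them were repeated. The peak at WASH2P, a pseudogene of the WAS protein family present in many subtelomeric copies, had 57 fragments over a background of 1.09 and a fold of 27.8, and 82.6% of its words were repeated. The peak at MIR1302-2HG near the end of chromosome 1 had 40 fragments over 0.615 and a fold of 25.4, and all of its words were repeated. These are the top values of the set, and neither can be placed on 1 copy. ALG1L9P, a pseudogene of a glycosylation enzyme, had 28 fragments, a fold of 18.01 and 51.1% repeated words.

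The other members with the highest folds had no more than 33.7% repeated words. ZSCAN2-AS1, antisense to a zinc finger gene, had 34 fragments over 0.615 and a fold of 21.7 in a peak of 1235 bp with 122 CpGs. ENSG00000254639 on chromosome 11 had 2 neighbouring peaks, with 34 and 33 fragments and folds of 19.7 and 19.4. Neither of these genes lay at a coding start site, the nearest being 10283 bp away for ZSCAN2-AS1 and 38232 bp for the closer peak of ENSG00000254639. SVIL-AS1, antisense to the gene of the actin-binding protein supervillin, and ENSG00000256658, 1431 bp from a start site of APOLD1, had 30 fragments and a fold of 19.2 each. ENSG00000291175 had 31 fragments and a fold of 18.9, and ENSG00000289518, 26732 bp from the nearest start site of the cell cycle kinase gene WEE1, had 29 and a fold of 18.6.

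The lowest folds went with high background rates. LINC01410 on chromosome 9 had the lowest fold, 1.71, with 118 fragments over a background of 68.7. ENSG00000283317 had a fold of 1.84 with 71 fragments over 38.2, and LSP1P5, a pseudogene of a lymphocyte protein gene, a fold of 1.93 with 64 over 32.6. These summits had more fragments than the median member, but over backgrounds far above the member median of 1.16, so that the gain over background was small. Whether that background was signal of untreated cells was not tested. The highest background, 88.1, was that of LINC00910, which also had the most fragments of all members, 230, and a fold of 2.59. ENSG00000283360 followed LINC01410 with a background of 53.4, 109 fragments and a fold of 2.02. All words of the peaks at ENSG00000283317 and ENSG00000283360 were repeated, 57.8% at LSP1P5 and 23.3% at LINC01410, while none were at LINC00910.

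The widest members were found beside coding genes with large islands. A peak of 2369 bp with 208 CpGs, 20 fragments and a fold of 12.4 held the start sites of ENSG00000188365 and ENSG00000241269, 2204 bp from a start site of TNRC18. A second peak beside TNRC18, at LINC03073, LINC02983 and ENSG00000272953, was 1914 bp wide with 154 CpGs, 20 fragments and a fold of 6.40. ENSG00000267073, 3268 bp from ONECUT3, a homeobox transcription factor gene, had a peak of 1861 bp with 189 CpGs, 25 fragments and a fold of 16.1. Each of these peaks lay within 1 island over its whole width, and TNRC18 and ONECUT3 had new peaks at start sites of their own. At least 1000 bp were covered by 71 members (12.6%), against 16.4% of the peaks at coding start sites.

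The members had 627 lncRNA genes with start sites in reach, 275 of them with a gene symbol and 352 known only by an identifier. Of the genes, 111 were LINC genes, 48 were antisense genes by name, 16 were microRNA hosts, 9 were snoRNA hosts and 86 had other symbols. Start sites of more than 1 lncRNA gene lay in reach of 102 members (18.1%), and all of these overlapped an island. The member with most, 4, lay at MIRLET7BHG, PRR34, PRR34-AS1 and ENSG00000273289 on chromosome 22, and had 10 fragments and a fold of 4.93. Of the 7 members with 3 start sites, the one at LINC01465, ENSG00000275180 and MIRLET7IHG had the highest fold, 17.4 with 27 fragments. In 49 members (8.67%) a pair of lncRNA genes started in opposite directions from the peak, and these also all lay in islands.

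The share of start sites reached gives the background for these counts. Of 13514 lncRNA genes whose canonical start lay more than 2000 bp from every coding start site, 586 (4.34%) had a new peak within 1000 bp, 584 of them through a member. Among 18978 canonical coding start sites 8293 (43.7%) did. Both kinds also differed in their islands, since 9.58% of the lncRNA-only start sites lay in one, against 67.6% of the coding ones. Within islands 436 of 1294 lncRNA-only start sites had a new peak (33.7%, interval 31.1 to 36.3%), against 61.5% of the coding ones. Outside islands the shares were 1.23% and 6.68%. lncRNA start sites that lay closer to a coding start site, 4715 in number, had a new peak in 43.7% of cases. The list holds new peaks only, and start sites already methylated in untreated cells were not taken out of any of these totals. The shares therefore do not compare start sites known to be unmethylated before treatment.

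The share rose with the number of CpGs in the window from 1000 bp before to 1000 bp after the start. None of the 5638 lncRNA-only start sites with fewer than 20 CpGs had a new peak, which allows a share of up to 0.0532%. From 60 to under 80 CpGs the share was 10.3% for lncRNA-only and 21.97% for coding start sites, and from 100 to under 120 CpGs it was 42.1% and 61.8%. In the class of 160 or more CpGs, 62 of 93 lncRNA-only start sites (66.7%, interval 56.1 to 76.1%) and 79.9% of the coding ones (78.3 to 81.4%) had a new peak. The intervals of both kinds did not overlap in any of the 8 classes from 20 CpGs upward, and the lncRNA-only share was the lower one in each. The same order held among start sites in islands, for example 44.2% against 62.5% from 100 to under 120 CpGs. Neighbouring start sites can share a peak, so the intervals are too narrow, and since there was 1 library the difference was not tested. Start sites already methylated in untreated cells are in the totals of both kinds here too, in numbers not examined.

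**Figure D2:**
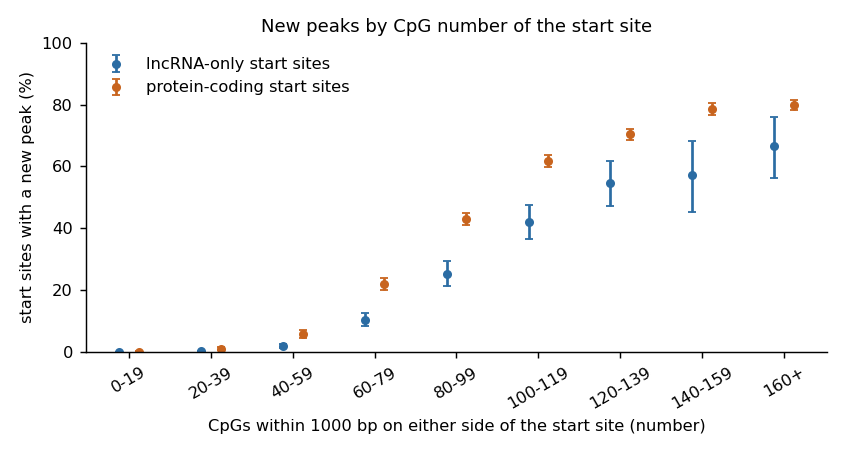
Share of start sites with a new peak (%, 95% exact binomial intervals) by the number of CpGs within 1000 bp on either side, for 13514 lncRNA-only and 18978 coding start sites. Both rise from near 0 to 66.7% and 79.9%, with the lncRNA-only share below the coding share in every class.

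By kind of gene, hosts of small RNAs had the highest shares. Of 19 snoRNA host genes, whose introns carry small nucleolar RNAs that guide the modification of ribosomal RNA, 9 had a new peak (47.4%, interval 24.4 to 71.1%). Of 66 microRNA host genes 16 did (24.2%, interval 14.5 to 36.4%), while the share was 5.13% of LINC genes, 4.91% of antisense genes and 3.35% of genes without a symbol. For start sites in islands the shares lay closer together, at 9 of 15 for snoRNA hosts, 58.3% for microRNA hosts (14 of 24), 31.8% for LINC genes and 31.4% for antisense genes. By the annotation's own tag, hosts of small RNAs had a share of 54.3% in islands (76 of 140, interval 45.7 to 62.7%), against 31.2% of the others (28.5 to 34.0%). Host start sites in islands had a median of 109.5 CpGs and the others 95, and the part of this in the result was not tested. None of 116 intronic or overlapping transcripts had one, which allows a share of up to 2.59%. The 1 gene of this kind with a member started 1109 bp from a coding start site, too close to be among the 116, and its peak had a fold of 3.89.

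The place of the start site also went with the share. Outside coding genes it was 5.54% (527 of 9507), inside a coding gene on the opposite strand 1.42% and on the same strand 1.62%. In islands the values were 35.4%, 18.97% (interval 12.3 to 27.3%) and 28.3% (15.99 to 43.5%), and the last of these overlapped both others. lncRNA genes more than 100000 bp from a coding start site had a share of 1.97%, and of 23.1% in islands, where their median was 83 CpGs against 98 between 20000 and 100000 bp, whose share was 40.7%.

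Among the snoRNA hosts with a member, DANCR, a lncRNA described as an inhibitor of cell differentiation, had its summit in an intron, with 18 fragments over 0.702 and a fold of 11.2. SNHG16 had 2 members, with 22 and 13 fragments and folds of 13.6 and 8.69. SNHG26 followed with 16 fragments and a fold of 10.04, SNHG25 with 14 and 9.31, SNHG12 with 17 and 8.77, SNHG6 with 13 and 8.69. SNHG17 and SNHG15 had 10 fragments and a fold of 6.83 each. SNHG7 had 70 fragments, the most of these genes, over a background of 24.98, and with 2.73 the lowest fold. SNHG6, SNHG17, SNHG25 and SNHG26 were named as members of the group and not by the rule for named genes.

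Counted by the nearest start site, the microRNA hosts had 19 members with a median fold of 6.87. The peak in reach of MIRLET7IHG, described above, is not among them. MIR17HG, the host of the miR-17 cluster, which promotes proliferation, had 2 peaks with 21 and 19 fragments and folds of 13.7 and 12.4, both over the genome-wide background and together within 1 island. MIR34AHG, the host of the p53 target miR-34a, had 18 and 31 fragments over backgrounds of 1.97 and 8.60, and folds of 6.40 and 3.33. MIR210HG, the host of the hypoxia-induced miR-210, had 22 and 37 fragments over 4.97 and 17.3, and folds of 3.85 and 2.07. In both of these genes the peak with more fragments thus had the lower fold. MIR9-1HG, the host of a copy of the neuronal miR-9, had folds of 8.30 and 3.82, the second in sequence with 87.8% repeated words and outside islands. MIR31HG had 8 fragments and a fold of 5.29.

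In 7 members a whole microRNA gene lay within the peak, in 1 more the peak overlapped a microRNA gene, MIR1915, in 19 bp only, and in another the gene of a snoRNA, SNORD104, lay in the peak of SNHG25. The 8 microRNA genes were MIRLET7I (fold of the peak 17.4, 27 fragments), MIR4634 (14.3, 22), MIR4519 (11.5, 20), MIR4449 (11.2, 18), MIR4734 (8.996, 17), MIR1915 (4.84, 17), MIR210 (3.85, 22) and MIR4792 (3.71, 13). For 7 of these genes RefSeq (GRCh38.p14) gave 10 mature microRNAs, all of which were found in the hg19 sequence of the gene and which had 10 distinct seeds. Mature sequences are shown for 4 microRNAs, the highest fold, the most CpGs, the one in the DANCR peak shown above and the best known, with the seed (bases 2 to 8) in capitals. They lie at chr12:62997471-62997492 (plus strand), chr5:174178746-174178764 (plus), chr4:53578887-53578908 (plus) and chr11:568112-568133 (minus), in this order.
hsa-let-7i-5p: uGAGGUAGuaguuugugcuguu
hsa-miR-4634: cGGCGCGAccggcccgggg
hsa-miR-4449: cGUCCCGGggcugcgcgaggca
hsa-miR-210-3p: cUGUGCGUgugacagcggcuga

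let-7i belongs to the let-7 family of differentiation-associated microRNAs, and its mature 5p sequence covers no CpG. The DNA of the mature miR-4634 holds 5 CpGs, that of miR-4449 holds 4 and that of miR-210-3p holds 2. The MIR4449 gene as a whole has 11 CpGs, all inside the DANCR peak, and MIR4734 has 12, the most of the 8. These are sequence counts, and the list does not show which of the CpGs were methylated.

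A list of 91 well studied lncRNA genes was set against the peaks. Of these, 21 had a member, 10 had a new peak that lay also within reach of a coding start site, 36 were lncRNA-only start sites with no listed peak, 15 more without a peak lay near a coding start site and 9 had no lncRNA gene of that symbol on chromosomes 1 to 22. The 21 genes had 28 members with a median fold of 7.45, and 15 of the 28 were above the median of all members. Their start sites had a median of 120 CpGs within 1000 bp on either side and lay in an island in 19 of 21 cases. The 36 without a listed peak had a median of 40.5 CpGs and lay in an island in 10 cases. Of all lncRNA-only start sites 4.34% had a new peak, and of those in islands 33.7%. The list was chosen with earlier results of these data known, so its counts do not stand for lncRNA genes in general.

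LINC00511, a lncRNA described in several cancers, stood highest with folds of 16.1 and 14.9, from 25 and 23 fragments over the genome-wide background. Its summits lay 1023 and 168 bp downstream of the start site, in an intron and in exon 1. Both are among the sequences shown above. NR2F1-AS1, antisense to the gene of an orphan nuclear receptor of neural development, had 2 peaks with 26 and 16 fragments and folds of 9.21 and 6.97. HAR1A, which overlaps a region of accelerated change in the human lineage, had 34 fragments over 2.95 and a fold of 8.86 in a peak it shared with HAR1B.

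NORAD, a cytoplasmic lncRNA that binds PUMILIO proteins, had 19 fragments and a fold of 8.38, with 43.7% of its words repeated. DGCR5, from the region deleted in DiGeorge syndrome, had 29 fragments over 2.70 and a fold of 8.10. DLEU1 and LINC-PINT, the latter a p53-induced lncRNA, had 11 fragments and a fold of 7.45 each. DLEU2, the host of the miR-15a and miR-16 genes, which are deleted in many chronic lymphocytic leukemias, had 19 fragments over 4.18 and a fold of 3.86. The DLEU1 and DLEU2 peaks, on neighbouring genes of chromosome 13, thus differed mainly in background.

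MALAT1, an abundant nuclear lncRNA of speckles, was among the weaker members with 9 fragments over 0.737 and a fold of 5.76 in a peak of 487 bp with 50 CpGs. Its summit lay 75 bp downstream of the start site, in exon 1. PVT1, the neighbour of MYC, had 24 fragments over 3.69 and a fold of 5.33, with the summit 213 bp upstream of its start. Start sites of the list without a listed peak included CRNDE with 182 CpGs, KCNQ1OT1 with 181, NEAT1 with 120 and TERC, the telomerase RNA gene, with 114, all in islands. MEG3 with 54 and H19 with 47 lay outside islands. CpG number alone thus did not separate the genes with and without a listed peak. Whether any of these start sites was already methylated in untreated cells, where a new peak could hardly be listed, was not examined here. These 6 genes were chosen after their values had been seen.

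lncRNA genes named after developmental regulators were searched by symbols that begin with HOX, SOX, PAX, FOX, GATA, TBX, NKX, LHX, DLX, EMX, OTX, NR2F, WT1, MEIS, IRX, ZIC, LMX, POU, HAND or TLX, or with the name of the sine oculis homeobox family, whatever the rest of the symbol, and other developmental genes were not counted. There were 5 of them with a member, NR2F1-AS1, FOXC2-AS1, LHX2-AS1, FOXD3-AS1 and TBX2-AS1, with 8 members and folds of 3.75 to 9.21, and the upper peak of NR2F1-AS1 was the only 1 of the 8 above the median of all members. Their fragments, 15 to 26, were near the median of the set. FOXD3-AS1 had 24 and 20 fragments over backgrounds of 4.99 and 4.60, and folds of 4.18 and 3.75. LHX2-AS1 had 25 and 20 over 3.58 and 4.20. Of 23 lncRNA-only start sites with such symbols 3 had a new peak (13.0%, interval 2.78 to 33.6%), against 4.34% of all lncRNA-only start sites. Of these 23, 34.8% lay in an island, against 9.58% of all. In islands the share was 3 of 8 (37.5%, interval 8.52 to 75.5%), near the 33.7% of all lncRNA-only start sites in islands.

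The summits lay mostly downstream of the lncRNA start site. The median was 92 bp downstream with quartiles of 156 bp upstream and 352 bp downstream, against 180 bp downstream for peaks within reach of a canonical coding start site. The summit was downstream in 340 members (60.2%, interval 56.0 to 64.2%) and in 72.9% of those coding peaks (72.0 to 73.9%). It was within 500 bp of the start in 72.2% of members and 75.4% of coding peaks. The peak covered the start site itself in 296 members (52.4%, interval 48.2 to 56.6%) and in 59.7% of coding peaks (58.7 to 60.8%). Members that covered it had a median fold of 8.07 and a median width of 626.5 bp, and the others 6.28 and 386 bp.

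By gene structure, 180 summits lay in exon 1 of the lncRNA gene, 145 in an intron, 10 in a later exon, 223 upstream and 7 beyond the end of the gene. With respect to coding genes 487 lay outside, 58 in an intron, 17 in a coding exon and 3 in a non-coding part of an exon. The 17 in coding exons had a median fold of 4.80 and a median background of 3.23, against 7.40 and 1.14 for those outside coding genes.

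The distance from the edge of the peak to the nearest coding start site ran from 1023 bp, at STAM-DT, to 2084693 bp, at ENSG00000287083 on chromosome 4. Its median was 23640 bp. The lncRNA start site can lie closer than the peak, and that of STAM-DT lay 273 bp from a coding start site. Of the 627 lncRNA genes in reach of members, 584 started more than 2000 bp from every coding start site. STAM-DT and ENSG00000287083, named for this, had 12 and 13 fragments and folds of 7.64 and 8.69. The median fold was 6.45 in the 51 members up to 2000 bp from a coding start site, 6.53 from there to 5000 bp, 7.35 to 20000 bp, 7.45 to 100000 bp and 7.40 beyond. At least 92.7% of the members in each of these classes were in islands. Fold and distance had a Spearman rho of 0.0740 over the 565 members. Thus the members far from any coding promoter had folds like those of the whole set.

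The coding gene nearest to the member had a new peak at a start site of its own in 322 members (57.0%, interval 52.8 to 61.1%), against 46.7% of all 19229 coding genes. Counting each of the 478 nearest coding genes once, 276 did (57.7%). In 44 members the island that held the peak also held a coding start site, and of these 36 had a nearest coding gene with a new peak (81.8%, interval 67.3 to 91.8%). In the other 521 the number was 286 (54.9%, interval 50.5 to 59.2%). By distance the share was 72.5% up to 2000 bp and between 51.0% and 58.2% in the classes beyond. Whether the genes nearest to members differ from other coding genes in CpG content was not tested.

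The letters of some promoter motifs were searched on both strands of the 300 bp around the summit. GGGCGG, the core of the GC box bound by SP1, was present in 76.1% of members and 76.4% of peaks at coding start sites. CCGGAAG, the letters of an ETS site, was present in 7.96% and 7.93%, CACGTG, an E-box, in 5.31% and 6.18%, and CCAAT in 15.0% and 13.4%. TATAAA was found in 12 members (2.12%, interval 1.10 to 3.68%) and in 1.49% of peaks at coding start sites, and the NRF1 palindrome in 4 members (0.708%) and 0.742%. Each pair of shares lay within the counting error of the member share. In 300 bp around the start sites, GGGCGG was present at 66.2% of the lncRNA-only start sites with a new peak, at 58.0% of those in an island without one and at 11.3% of all those without one. Between start sites with a new peak and those in an island without one, CCAAT (26.3% against 21.9%) and TATAAA (6.66% against 2.80%) were also more frequent at the former. CCGGAAG (10.8% against 14.2%), CACGTG (6.31% against 9.79%) and the NRF1 palindrome (1.54% against 2.56%) were less frequent there. The start sites with a new peak include 150 outside islands. A match is a string of letters, and binding was not measured.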

How the data were processed

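HEK293 MBD-seq libraries were available for 4 conditions (1 each), and only the list of the wild type library was used. Reads had been aligned by the authors to hg19 with Bowtie2 at default settings on Galaxy, and the submitters' processing notes name FastQC, Bowtie2, deepTools and MACS2. The settings of MACS2 and the versions of the tools are not given in the sources used here. The columns deposited for each peak are a score, left aside because it repeats the −log10 q in whole steps of 10 per unit, a fold (ratio), −log10 values of the p-value and the q-value, and the offset of the summit. Columns of other samples numbered 0.

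Members and gene lists were chosen with earlier results of these data known. Start sites came from GENCODE release 44 on GRCh37, with 18229 lncRNA and 18978 coding genes with a canonical start site on chromosomes 1 to 22, and 141293 start sites of coding transcripts. CpG islands were segments of over 200 bp with at least 50% GC and an observed to expected ratio over 0.6, found by scoring a CpG with 17 and any other base with -1. The number of fragments k and the rate of the background were solved from fold = (k + 1)/(rate + 1) and a Poisson p-value, which met the listed −log10 p within 0.000358. That the control was the untreated library is inferred. A member was called repeated where over 50% of its 31-base words occurred elsewhere in the reference.

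The library's depth is not given in the file. Precision rests on 19 fragments at the median summit and on 1 library. Shares have 95% exact binomial intervals, and 3 counts set the limit for a share of 0. Named genes are those at the 10 highest and 3 lowest folds, the 3 widest members, the 3 highest background rates, the 3 members with most lncRNA start sites and the members at 91 studied lncRNA genes. Items that the rule names but that are left out of the text are not reported here. Alternatives covered the reach of a start site, the distance from coding start sites, the transcripts and genes used, the peak threshold, the island criteria and repeated members. The recovery of fragments, the search for islands, the distances between peaks and start sites and the count of repeated words were tested on simulated data. The other steps were not. Python 3.11.15 was used with numba 0.67.0, scipy 1.17.1, pandas 2.3.3, numpy 2.4.6 and matplotlib 3.10.9.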

Additional observations from a re-analysis of the deposited data

How the results depend on the processing

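Of 68 values recomputed under other settings, 43 stayed within 1.5 times the count or within the interval of the value reported, and 25 moved. Keeping only lncRNA genes of annotation level 1 or 2 left all 565 members, so the values of this setting, counted among the 43, could not move. With a reach of 500 bp around start sites the peak covered the start site in 60.5% of members, and with 2000 bp in 45.2%. With the start sites of all lncRNA transcripts it did in 60.3%. With a reach of 2000 bp 91.1% overlapped an island. Under the stricter island criteria 79.6% of the 565 members did. Keeping peaks of at least the median fold of the list left 274 members with a median fold of 9.93, of which 98.2% were in islands and 62.4% covered the start site, and a −log10 q of at least 10 left 282, with 9.93, 98.2% and 62.8%. In 300 bp around the summit the median CpG density was 10 per 100 bp. The share of lncRNA-only start sites with a new peak was 3.91% with 500 bp, 5.03% with 2000 bp, 2.27% and 2.33% under the peak thresholds, 33.7% in islands and 3.76% with neighbouring start sites counted once. The share of coding start sites was 41.9%, 44.8%, 27.0%, 26.0% and 61.5% under the first 5 of these. Thresholds on fold and q raise the median fold by construction. These thresholds and a smaller reach can only lower the share of start sites with a new peak, and a larger reach can only raise it. The peaks that covered the start site numbered 296 at each reach, and only the total changed, from 489 members with 500 bp to 655 with 2000 bp. For the other shifts the cause was not tested. Coding start sites stayed above lncRNA-only start sites in each of these settings.

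Without the 103 repeated members, an alternative chosen after seeing the data, the median fold was 7.15 and 94.6% were in islands. The planned islands from masked sequence were not run, because repeats are not marked in the reference. No paired analysis was possible because each condition had 1 library, and for the same reason no replicate could be left out.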

Other observations

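Over chromosomes, the share of lncRNA-only start sites with a new peak ran from 1.15% on chromosomes 18 (5 of 434) and 21 (3 of 260) to 7.97% on chromosome 7 (51 of 640). On chromosome 7, 16.2% of these start sites lay in an island, on chromosome 18 5.53% and on chromosome 21 8.08%. The share of coding start sites with a new peak was 45.0% on chromosome 7, 54.5% on chromosome 18 and 37.3% on chromosome 21, so the order of the chromosomes differed between both kinds of start site. Chromosome 19 had the lowest coding share, 23.7%, and a lncRNA-only share of 2.94%.

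lncRNA-only genes of 1 exon had a new peak in 6.36% of cases (122 of 1919, interval 5.31 to 7.54%) and those of 2 or more exons in 4.002% (464 of 11595, interval 3.65 to 4.37%), with 9.95% and 9.51% of their start sites in islands. The 32 members outside islands had a median fold of 4.99, a median background of 2.31 and a median width of 292 bp, against 7.45, 1.09 and 495 bp in the 533 members in islands. Of the 32, 7 were repeated.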
